A study of Mus musculus with 24 samples.

Results

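ChIP-seq lists of YAP peaks were analysed for tet-Myc/YAP and tet-YAP livers, and 583 of the 1328 YAP peaks of tet-YAP livers make up the common sites described here. A tet-YAP YAP peak was a common site where it shared at least 1 bp with a YAP peak of tet-Myc/YAP livers and at least 1 bp with a region of H3K4me3, H3K27ac or H3K4me1 in wild-type livers. Of the 1328 peaks, 625 were found again in tet-Myc/YAP livers, and 42 of these lay on none of the 3 wild-type marks and were left out. The sites were thus chosen by the YAP peaks of both lists and by the wild-type marks, and these values are given at the sites as a description only. The sites were compared with the 435 tet-YAP YAP peaks that lay on a wild-type mark but were not found again in tet-Myc/YAP livers, and with the 10998 YAP peaks of tet-Myc/YAP livers that lay on a wild-type mark and had no counterpart in tet-YAP livers.

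All 4 genotypes carried R26-rtTA, a doxycycline-dependent transactivator whose locus is active in many cell types and is not restricted to hepatocytes. Tet-Myc/YAP mice carried both inducible transgenes (R26-rtTA;tet-Myc;tet-YAP), tet-YAP mice carried the YAP transgene alone, a Col1A1-YAP construct that encodes an activated serine-to-alanine mutant, tet-Myc mice carried the Myc transgene alone, and wild-type mice had neither. Per the labels, livers were taken after 2 days of induction, which per the study's methods was by doxycycline in the food. No source used here gives the age of the mice or says whether livers were pooled. Lists of TEAD, Myc, RNA polymerase II, H3K27ac and H3K4me3 were used for all 4 genotypes, those of YAP for the 2 genotypes with the YAP transgene, and that of H3K4me1 for wild-type livers.

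YAP is the transcriptional coactivator that the Hippo kinase pathway keeps out of the nucleus. It has no DNA-binding domain and reaches DNA mainly through the TEAD family of sequence-specific factors, and in the liver its activation is known to drive growth and tumours. Myc is a basic helix-loop-helix factor that binds E-boxes together with Max, and it is mostly found at active promoters. H3K4me3 marks active or poised promoters, H3K4me1 marks enhancers and the flanks of promoters, H3K27ac marks active promoters and enhancers, and RNA polymerase II marks transcription start sites and transcribed genes.

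For every antibody there was a single library per genotype (n = 1), which leaves comparisons between genotypes without a replicate check and without a test. Shares of sites are given with Wilson 95% intervals, which cover counting only, and sites are not independent of each other, since 123 of the 583 shared their tet-Myc/YAP YAP peak with another common site. The TEAD, Myc, YAP and polymerase libraries held 16.9 to 50.6 M (mega) tags. TEAD depths were alike, at 31.6 to 33.1 M, while those of RNA polymerase II were 45.8 M in tet-Myc/YAP, 37.7 M in tet-YAP, 50.6 M in tet-Myc and 20.9 M in wild-type livers. The YAP library held 17.4 M tags with a control of 167 M in tet-Myc/YAP livers, and 25.2 M tags with a control of 25.2 M in tet-YAP livers. The fragment size that the peak caller estimated was 364 bp for YAP in tet-Myc/YAP livers but 56 bp for YAP in tet-YAP livers and 51 bp for Myc in wild-type livers, close to or at the tag length of 51 bp, and the peaks of those 2 lists were narrow, with median widths of 98 and 81 bp.

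Common sites were mostly on promoter-like chromatin, which the rule favours, since H3K4me3 was among the marks that chose them. Of the 583, 411 (70.5%, 95% interval 66.7% to 74.1%) overlapped wild-type H3K4me3 and are called promoter-like, against 45.6% of all tet-YAP YAP peaks and 194 of the 435 sites that were not found again (44.6%). The 45.6% includes the 310 tet-YAP YAP peaks outside all 3 wild-type marks, which by definition had no wild-type H3K4me3. The 435 sites, like the common sites, had to lie on a mark. The other 172 common sites had no wild-type H3K4me3 and are called distal, of which 158 carried wild-type H3K27ac and 14 carried H3K4me1 alone. All 3 wild-type marks were present at 368 sites (63.1%), and H3K4me3 alone at 5. The sites fell in 344 of the 18852 wild-type H3K4me3 regions, 461 of the 17821 H3K27ac regions and 435 of the 21671 H3K4me1 regions. These regions were broader than the rest: H3K27ac regions with a common site had a median width of 17538 bp, against 8002.5 bp for those without, and H3K4me3 regions 4889.5 bp, against 3338 bp. Wider regions can hold a site more easily, and the part of width was not tested.

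The common sites covered the whole range of YAP strength, including the strongest peaks of both lists. In tet-Myc/YAP livers the overlapping YAP peak had a median fold enrichment over control of 8.28 (range 3.08 to 38.7) and a median width of 755 bp. In tet-YAP livers the common sites had a median fold enrichment of 14.6 (range 2.64 to 78.2) and a median width of 120 bp. Folds of the 2 lists were scaled by different controls and were not compared with each other. Ranked within its own list, the median site stood at the 77.4th percentile in tet-Myc/YAP livers and at the 54.9th in tet-YAP livers, where 0 is the weakest and 100 the strongest peak. In tet-YAP livers no peak outside the common sites had a fold over 33.1, while 84 common sites (14.4%) were in the top 10% of that list and 178 (30.5%) had a partner in the top 10% of the tet-Myc/YAP list. Over the 583 sites the 2 fold enrichments ran together only weakly (Spearman rho 0.14, a description over sites that share 2 libraries).

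At the edge of the overlap rule, the 4 common sites with the smallest overlaps shared 1, 16, 23 and 25 bp with their tet-Myc/YAP YAP peak, while 526 of the 583 lay wholly inside it. On the other side of the rule, the 4 nearest of the sites not found again lay 0, 8, 12 and 13 bp from a tet-Myc/YAP YAP peak, and 21 of the 435 lay within 100 bp.

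TEAD was present at nearly every common site in every genotype. A TEAD peak overlapped 581 sites in tet-Myc/YAP (99.7%), 577 in tet-YAP (99%), 578 in tet-Myc (99.1%) and 580 in wild-type livers (99.5%), where 88.4%, 85.7%, 87.7% and 85.3% of all tet-YAP YAP peaks had one in the same 4 lists. TEAD occupied 574 common sites (98.5%, 97.1% to 99.2%) in all 4 genotypes, against 314 of the 435 sites not found again (72.2%, 67.8% to 76.2%). The wild-type share was measured in livers that carry neither transgene.

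These TEAD peaks were also among the strongest of their lists. The median TEAD fold enrichment at common sites was 37.1 in tet-Myc/YAP, 19.6 in tet-YAP, 26.6 in tet-Myc and 15.1 in wild-type livers, against 14.3, 9.62, 13.9 and 8.62 at the sites not found again and 7.72, 6.28, 7.01 and 5.79 at all TEAD peaks that overlapped no common site. In the ranking of its own list the median common site stood at the 97.7th, 97.6th, 97.5th and 97.6th percentile in the same order of genotypes. Within the top 10% of TEAD peaks by fold in all 4 lists lay 373 common sites (64.0%), against 55 of the sites not found again (12.6%). Of the 515 tet-YAP TEAD peaks that overlapped a common site, 431 were among the 3218 in the top 10% of that list, and of the 517 in wild-type livers 403 were among the top 3310.

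This rank was alike at promoter-like and distal sites. Median TEAD percentiles in wild-type livers were 97.8 at the 410 promoter-like common sites with a peak and 96.8 at the 170 distal ones. The difference from the sites not found again was kept where tet-YAP YAP peaks of like strength were taken, a comparison added after the data were seen: with −log10 q from 4 up to 10, the median wild-type TEAD percentile, over sites with a TEAD peak, was 97.1 among 317 common sites and 85.3 among 266 sites not found again. Only 17 common sites had a wild-type TEAD percentile under 50.

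**Figure D1:**
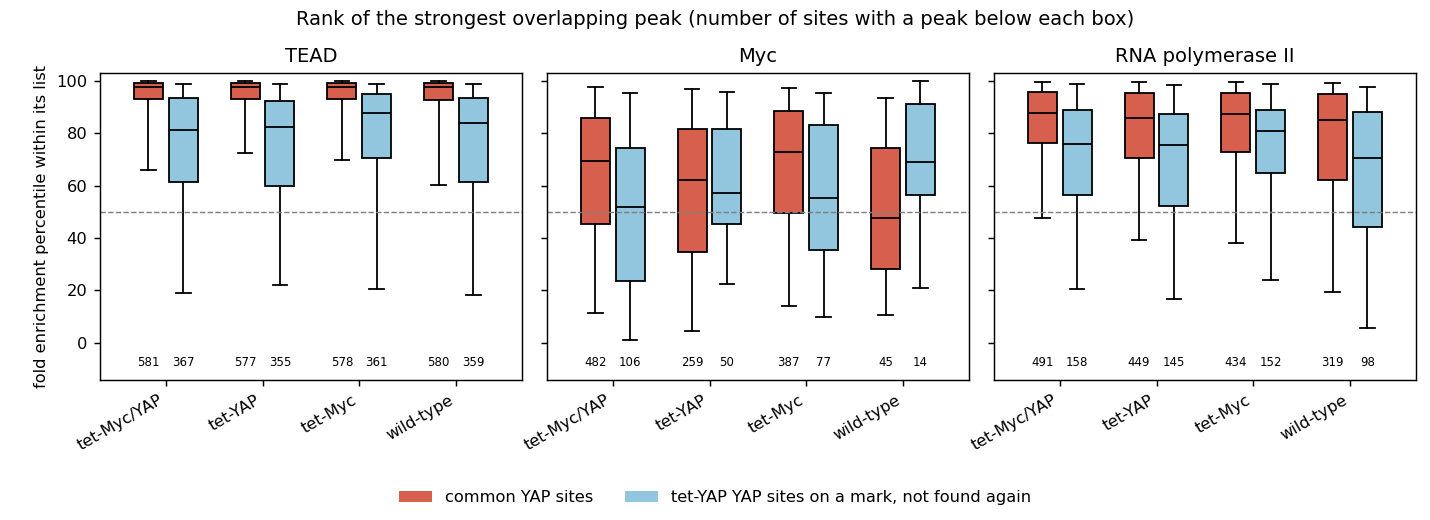
Fold enrichment percentile, within its own list, of the strongest TEAD, Myc or RNA polymerase II peak that overlaps a site, by genotype. Red boxes are the common YAP sites and blue boxes the tet-YAP YAP sites on a wild-type mark that were not found again in tet-Myc/YAP livers. Boxes span the quartiles with the median as a line, whiskers reach the 5th and 95th percentile of the sites, the dashed line is the middle of each list, and the numbers are the sites with a peak. TEAD medians of common sites lie at 97.5 to 97.7 in the 4 genotypes, while Myc medians lie at 69.5, 62.1, 72.9 and 47.7.

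Myc differed between genotypes far more than TEAD did in the full lists. A Myc peak overlapped 482 common sites in tet-Myc/YAP (82.7%, 79.4% to 85.5%), 259 in tet-YAP (44.4%), 387 in tet-Myc (66.4%) and 45 in wild-type livers (7.72%). Among all tet-YAP YAP peaks the shares were 47.1%, 23.5%, 35.2% and 4.44% in the same order, and at the sites not found again 24.4%, 11.5%, 17.7% and 3.22%. In no genotype did Myc overlap 88 common sites (15.1%), against 303 of the 435 sites not found again (69.7%). The wild-type Myc list was the shortest, with 4775 peaks against 30327, 13227 and 32592 in tet-Myc/YAP, tet-YAP and tet-Myc livers, and its narrow peaks had the fragment estimate given above. The shares rested on list length: with all 4 lists cut to the 4775 peaks of highest −log10 q, Myc overlapped 22.98% of common sites in tet-Myc/YAP, 21.8% in tet-YAP, 19.2% in tet-Myc and 7.72% in wild-type livers, so that the intervals of the 3 transgenic genotypes overlapped. TEAD lists cut to the same 4775 peaks, an alternative added after the data were seen, overlapped 81.6% in tet-Myc/YAP, 89.9% in tet-YAP, 83.5% in tet-Myc and 88.3% in wild-type livers. The TEAD intervals of tet-Myc/YAP (78.3% to 84.6%) and tet-YAP livers (87.2% to 92.1%) did not overlap. At that length Myc thus did not differ more than TEAD among the 3 transgenic genotypes, and only its wild-type share stood apart.

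Promoter-like and distal sites differed in how much Myc they held without both transgenes. Among the 411 promoter-like sites, 86.6% had Myc in tet-Myc/YAP, 53.8% in tet-YAP, 75.2% in tet-Myc and 10.2% in wild-type livers. Among the 172 distal sites, 73.3% had Myc in tet-Myc/YAP, 22.1% in tet-YAP, 45.3% in tet-Myc and 1.74% in wild-type livers. The intervals of the 2 classes overlapped in no genotype, and in tet-Myc livers these were 70.8% to 79.1% for promoter-like and 38.1% to 52.8% for distal sites. In the lists of equal length the distal shares were 11.05%, 6.98%, 4.65% and 1.74% in the same order of genotypes. Sites not found again, taken with tet-YAP −log10 q from 4 up to 10, showed the same order of the 2 classes. Their promoter-like and distal shares were 36.9% and 16.0% in tet-Myc/YAP and 23.8% and 3.47% in tet-YAP livers. In tet-Myc livers they were 36.1% and 8.33%, and in wild-type livers 4.92% and 1.39%. More Myc at promoter-like sites was thus not particular to the common sites.

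Taken site by site, the most frequent pattern was Myc in tet-Myc/YAP, tet-YAP and tet-Myc but not in wild-type livers, at 194 sites. Myc in tet-Myc/YAP and tet-Myc livers only followed with 141 sites, and Myc in tet-Myc/YAP livers alone was seen at 86 sites, 43 of them distal. Of the 259 sites with Myc in tet-YAP livers, which lack the Myc transgene, 252 (97.3%) had it in tet-Myc/YAP and 238 (91.9%) in tet-Myc livers. Between the 2 genotypes that carry the Myc transgene, 106 sites had Myc in tet-Myc/YAP but not in tet-Myc livers, and 11 had it in tet-Myc but not in tet-Myc/YAP livers. The share in tet-Myc/YAP livers was also above that in tet-Myc livers over all tet-YAP YAP peaks (47.1% and 35.2%). The same held at the sites not found again (24.4% and 17.7%). The 39 sites with Myc in all 4 genotypes held strong Myc peaks in the transgenic genotypes, with median percentiles of 91.6 in tet-Myc/YAP, 84.7 in tet-YAP, 90.04 in tet-Myc and 51.0 in wild-type livers.

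**Figure D2:**
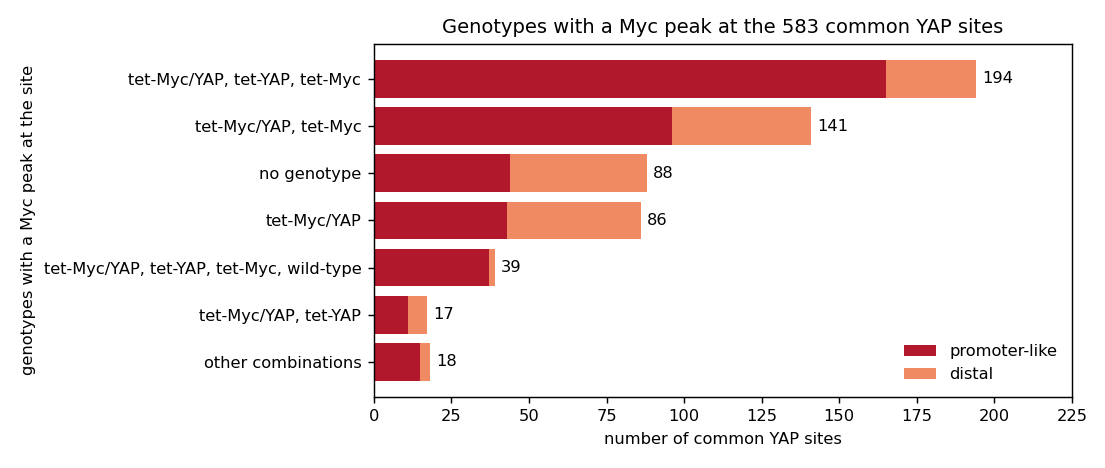
Number of common YAP sites (x axis) by the set of genotypes whose Myc list overlaps the site (y axis), split into promoter-like (dark) and distal (light) sites. The largest set, with 194 sites, has Myc in the 3 transgenic genotypes and not in wild-type livers, and 88 sites have Myc in none.

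The strength of YAP in tet-Myc/YAP livers went with the presence of Myc. Bins of tet-YAP YAP strength differed less. Over them the share with Myc fell steadily in tet-Myc/YAP livers, rose in wild-type livers and had no steady course in tet-YAP and tet-Myc livers. Both strengths are from the lists that chose the sites, and the part of the low fragment estimate of the tet-YAP list was not tested. Sites were cut into 4 bins of like size by the −log10 q of the tet-Myc/YAP YAP peak (the q being the false discovery rate of the peak caller), and 65.1%, 79.5%, 92.4% and 93.8% from the weakest to the strongest bin had Myc in tet-Myc/YAP livers. Over the same bins 17.1%, 32.2%, 55.2% and 73.3% had Myc in tet-YAP livers, and 55.5%, 65.1%, 75.2% and 86.3% were promoter-like. In bins by the −log10 q of the tet-YAP YAP peak, 87.0%, 83.6%, 82.1% and 78.1% had Myc in tet-Myc/YAP livers, 43.2%, 42.5%, 44.1% and 47.9% in tet-YAP livers, 67.8%, 64.4%, 69.0% and 64.4% in tet-Myc livers, and 2.74%, 8.22%, 8.28% and 11.6% in wild-type livers, where the intervals of the weakest and the strongest bin did not overlap. The 482 sites with Myc in tet-Myc/YAP livers had a median tet-Myc/YAP YAP fold of 8.78, against 6.79 where Myc was absent, whereas their median tet-YAP YAP folds were 14.6 and 15.9. Over the 482 sites the YAP and Myc folds of tet-Myc/YAP livers had a Spearman rho of 0.42, given as a description over sites.

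Within the top 10% of the tet-YAP TEAD list, common sites and sites not found again also differed in Myc, though rank inside that 10% was not matched. Among promoter-like sites in the top 10% of the tet-YAP TEAD list, 295 of 337 common sites (87.5%, 83.6% to 90.6%) had Myc in tet-Myc/YAP livers, against 16 of 43 sites not found again (37.2%, 24.4% to 52.1%). Among distal sites of that TEAD rank the counts were 119 of 150 common sites (79.3%) and 24 of 68 sites not found again (35.3%). Lower TEAD ranks held few common sites. Promoter-like counts were 36 of 44 against 19 of 49 at percentiles 75 to 90, and 14 of 16 against 14 of 39 at 50 to 75. Below 50 they were 8 of 10 against 9 of 25, with overlapping intervals. Distal counts were 5 of 13 against 10 of 57 and 0 of 5 against 5 of 40, both with overlapping intervals, and 2 of 2 against 4 of 34. With tet-YAP −log10 q held between 4 and 10, Myc in tet-Myc/YAP livers was at 261 of 317 common sites (82.3%) and 68 of 266 sites not found again (25.6%).

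RNA polymerase II followed the same order of site classes. Its peaks overlapped 491 common sites in tet-Myc/YAP (84.2%, 81.0% to 87.0%), 449 in tet-YAP (77.0%), 434 in tet-Myc (74.4%) and 319 in wild-type livers (54.7%), where 50.6%, 45.4%, 44.6% and 31.6% of all tet-YAP YAP peaks had one. Polymerase was at 308 sites in all 4 genotypes and at 63 in none, and 177 sites had it in tet-Myc/YAP but not in wild-type livers, against 5 with the reverse. The wild-type library was the shallowest of the 4, so that a lower wild-type share and a lower depth cannot be told apart. With the 4 lists cut to equal length, the share of common sites was 81.8% in tet-Myc/YAP, 74.6% in tet-YAP, 69.1% in tet-Myc and 54.7% in wild-type livers.

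Polymerase at distal common sites was most frequent in tet-Myc/YAP livers. It overlapped 118 of the 172 (68.6%, 61.3% to 75.1%) there, 81 (47.1%) in tet-YAP, 76 (44.2%, 37.0% to 51.7%) in tet-Myc and 30 (17.4%) in wild-type livers. At the 241 distal sites not found again the shares were lower but also highest in tet-Myc/YAP livers, at 26.1%, 19.9%, 23.2% and 10.4% in the same order. The tet-Myc list was the longer of the 2 with the Myc transgene, with 74914 peaks against 64678 in tet-Myc/YAP livers. At promoter-like sites the shares were 90.8% in tet-Myc/YAP, 89.5% in tet-YAP, 87.1% in tet-Myc and 70.3% in wild-type livers. Polymerase and Myc went together: 442 of the 482 sites with Myc in tet-Myc/YAP livers had polymerase there (91.7%), against 48.5% of the sites without Myc.

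**Figure D3:**
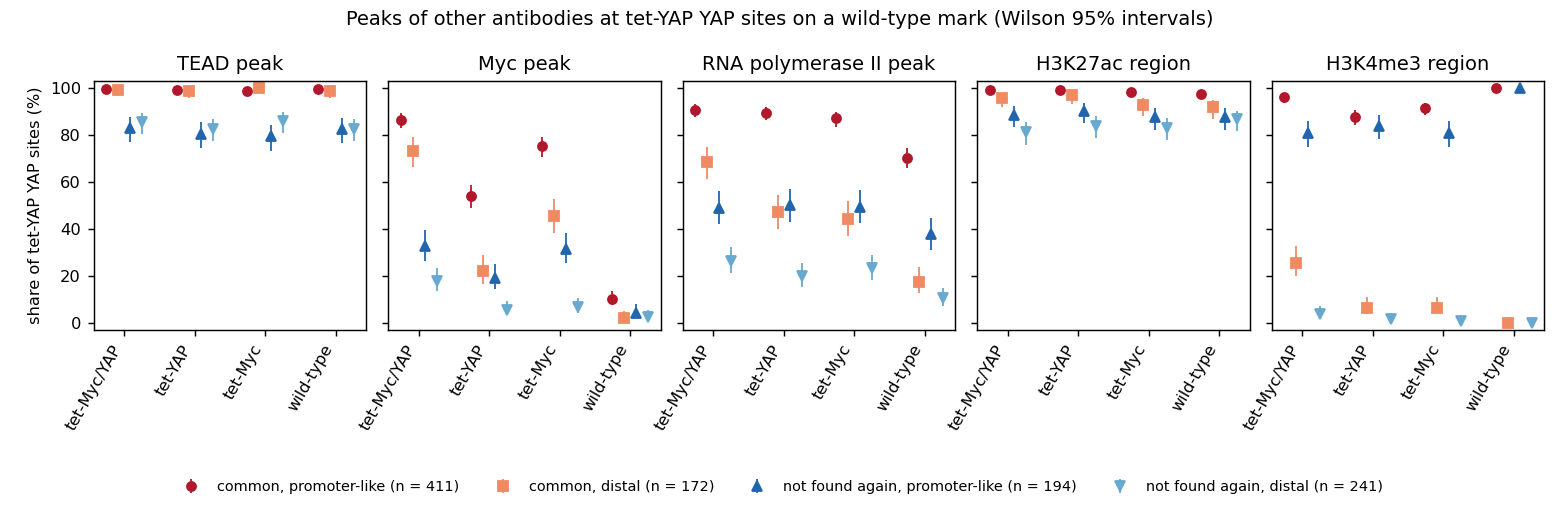
Share of sites (y axis, %) overlapped by a TEAD, Myc or RNA polymerase II peak or by an H3K27ac or H3K4me3 region in each genotype (x axis), with Wilson 95% intervals. Circles and squares are promoter-like and distal common sites, triangles are promoter-like and distal sites not found again, and wild-type H3K4me3 is 100% or 0% by the definition of the 2 classes. Myc at distal common sites is 73.3% in tet-Myc/YAP, 22.1% in tet-YAP, 45.3% in tet-Myc and 1.74% in wild-type livers.

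H3K27ac was already at most common sites in wild-type livers, as the rule favours. It covered 572 sites in tet-Myc/YAP (98.1%), 575 in tet-YAP (98.6%), 565 in tet-Myc (96.9%) and 558 in wild-type livers (95.7%), where 77.2%, 76.8%, 73.5% and 70.6% of all tet-YAP YAP peaks were covered. It was present in all 4 genotypes at 546 sites. Of the 25 common sites without wild-type H3K27ac, 19 had it in tet-Myc/YAP, 19 in tet-YAP and 16 in tet-Myc livers. Of the 56 sites not found again and without wild-type H3K27ac, 23 had it in tet-Myc/YAP, 20 in tet-YAP and 19 in tet-Myc livers.

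In the full lists, H3K4me3 appeared at distal common sites in tet-Myc/YAP livers more often than in the single transgenics. Over all 583 sites it covered 439 in tet-Myc/YAP (75.3%), 372 in tet-YAP (63.8%), 387 in tet-Myc (66.4%) and 411 in wild-type livers (70.5%), beside 46.4%, 40.7%, 41.3% and 45.6% of all tet-YAP YAP peaks. Of the 172 distal sites, which by definition had none in wild-type livers, 44 (25.6%, 19.6% to 32.6%) had H3K4me3 in tet-Myc/YAP livers, 11 (6.40%) in tet-YAP livers and 11 (6.40%, 3.61% to 11.1%) in tet-Myc livers. At 27 of them the mark was found in tet-Myc/YAP livers alone. Among the 241 distal sites not found again, 3.73% had it in tet-Myc/YAP livers. The 4 H3K4me3 lists covered 62.3 Mb in tet-Myc/YAP, 73.2 Mb in tet-YAP, 63.6 Mb in tet-Myc and 82.3 Mb in wild-type livers, so the list with the most distal sites covered the least sequence. It did hold the most regions, 19486 against 16014 in tet-YAP livers. When each list was cut to its 16014 highest-scoring regions, the distal counts were 19 in tet-Myc/YAP (11.05%), 11 in tet-YAP and 5 in tet-Myc livers. The tet-Myc/YAP share thus fell from 25.6% to a value inside the interval of 11 of 172 sites (3.61% to 11.1%). Its lead over tet-YAP livers was then no longer clear.

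The 44 distal sites with H3K4me3 in tet-Myc/YAP livers lay mostly far from wild-type H3K4me3. Their median gap to the nearest wild-type H3K4me3 region was 17644 bp, against 20491 bp for the 128 distal sites without the mark, and 3 of the 44 lay within 2000 bp of one. Myc was at 42 of the 44 in tet-Myc/YAP livers (95.5%), against 84 of the 128 (65.6%), and polymerase at 41 (93.2%), against 77 (60.2%). At promoter-like sites H3K4me3 was kept at 96.1% in tet-Myc/YAP, 87.8% in tet-YAP and 91.5% in tet-Myc livers.

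The YAP peaks of tet-Myc/YAP livers over common sites were then set beside those new to that genotype, both being peaks of 1 list, with median widths of 750.5 and 544 bp. The 583 common sites corresponded to 520 tet-Myc/YAP YAP peaks, of which 460 held 1 common site, 57 held 2 and 3 held 3. The 520 peaks had a median YAP fold of 8.28 and the 10998 new peaks 6.79. TEAD overlapped 99.6%, 99.2%, 99.8% and 99.6% of the 520 in tet-Myc/YAP, tet-YAP, tet-Myc and wild-type livers, against 94.6%, 84.9%, 86.4% and 86.2% of the new peaks, beside 94.2%, 85.2%, 86.6% and 86.3% of all 11719. Where TEAD was present, its median fold in wild-type livers was 15.0 at the 520 (97.5th percentile) and 7.01 at the new peaks (70.1st), and in tet-Myc/YAP livers 36.7 (97.6th) and 11.8 (73.8th).

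Myc went the other way. A tet-Myc/YAP Myc peak overlapped 86.2% (82.9% to 88.9%) of the 520 and 92.4% (91.9% to 92.9%) of the new peaks, beside 91.1% of all tet-Myc/YAP YAP peaks, with median Myc folds of 14.1 and 15.7. A Myc peak of tet-YAP, tet-Myc and wild-type livers was at 51.7%, 74.2% and 14.8% of the 520 and at 58.4%, 91.8% and 16.3% of the new peaks, beside 57.2%, 89.8% and 15.9% of all, and the wild-type intervals overlapped. Peaks over common sites were less often promoter-like, at 69.6% against 79.7% of the new peaks and 77.9% of all. They held polymerase at 86.2%, 80.0%, 76.5% and 58.7% in tet-Myc/YAP, tet-YAP, tet-Myc and wild-type livers, against 87.0%, 82.5%, 90.6% and 75.4% of the new peaks and 85.7%, 81.1%, 88.5% and 73.4% of all. H3K27ac was near its ceiling at both, at 95.6% to 98.5% of the 520 and 96.1% to 98.0% of the new peaks, beside 96.7%, 96.4%, 96.5% and 94.4% of all in the same order. H3K4me3 was at 74.8%, 63.1%, 65.4% and 69.6% of the 520, against 79.6%, 72.7%, 77.6% and 79.7% of the new peaks and 78.1%, 71.1%, 75.7% and 77.9% of all.

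The 2 kinds of distal peaks differed in Myc between the genotypes with the Myc transgene. Of the 158 distal peaks over common sites, 75.9% (68.7% to 81.9%) had Myc in tet-Myc/YAP livers, against 52.5% (44.8% to 60.2%) in tet-Myc livers. Of the 2233 new distal peaks, 79.7% had Myc in tet-Myc/YAP and 80.3% in tet-Myc livers. Polymerase behaved alike: it was at 72.2% of the distal peaks over common sites in tet-Myc/YAP and 46.8% in tet-Myc livers, but at 55.7% of the new distal peaks in tet-Myc/YAP and 64.9% in tet-Myc livers. H3K4me3 was at 25.9% of distal peaks over common sites in tet-Myc/YAP and 6.33% in tet-Myc livers, against 15.7% and 8.69% of the new ones. With the 4 H3K4me3 lists cut to 16014 regions these shares were 10.8% in tet-Myc/YAP and 2.53% in tet-Myc livers over common sites, against 4.70% and 2.69% of the new ones. When the 2 Myc lists were cut to equal length, an alternative that like the preceding one was added after the data were seen, Myc was at 120 of the 158 distal peaks over common sites in tet-Myc/YAP and 79 of 158 in tet-Myc livers, and at 79.7% and 77.8% of the new distal peaks. No test of these differences between genotypes was possible with 1 library each.

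**Figure D4:**
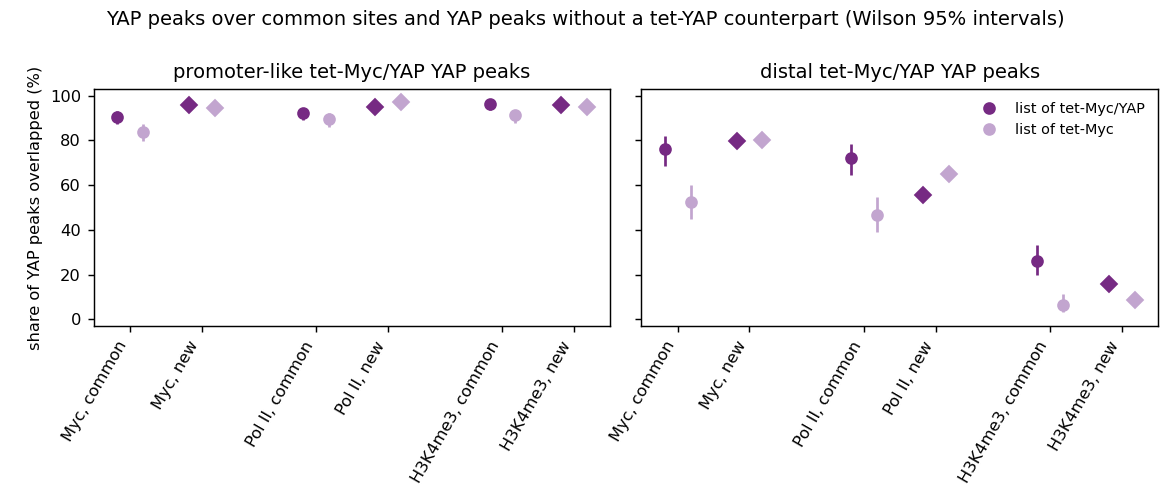
Share of tet-Myc/YAP YAP peaks (y axis, %) overlapped by Myc, RNA polymerase II (Pol II) or H3K4me3, for peaks over common sites (circles) and peaks without a tet-YAP counterpart (diamonds). Dark symbols are the tet-Myc/YAP list and pale symbols the tet-Myc list, with Wilson 95% intervals. Among distal peaks over common sites the dark symbols stand above the pale ones for Myc, at 75.9% and 52.5%, whereas at new distal peaks they stand at 79.7% and 80.3%.

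Summit positions separated TEAD from Myc. From the tet-YAP YAP summit the median distance to the nearest overlapping TEAD summit was 46 bp in tet-Myc/YAP, 53 bp in tet-YAP, 49 bp in tet-Myc and 78 bp in wild-type livers. Myc summits were farther off, at medians of 187 bp in tet-Myc/YAP, 186 bp in tet-YAP and 180 bp in tet-Myc livers. Within 50 bp of the YAP summit lay 54.0% of the tet-Myc/YAP TEAD summits and 13.1% of the tet-Myc/YAP Myc summits. The 45 wild-type Myc summits lay at a median of 51 bp, in the list of narrow peaks, where only close summits can overlap. The YAP summit of tet-Myc/YAP livers lay at a median of 118 bp from that of tet-YAP livers. From the tet-Myc/YAP YAP summit, TEAD lay closer at the 520 peaks over common sites than at the new peaks (medians of 89.5 and 160 bp), while Myc lay at 156.5 and 141.5 bp.

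**Figure D5:**
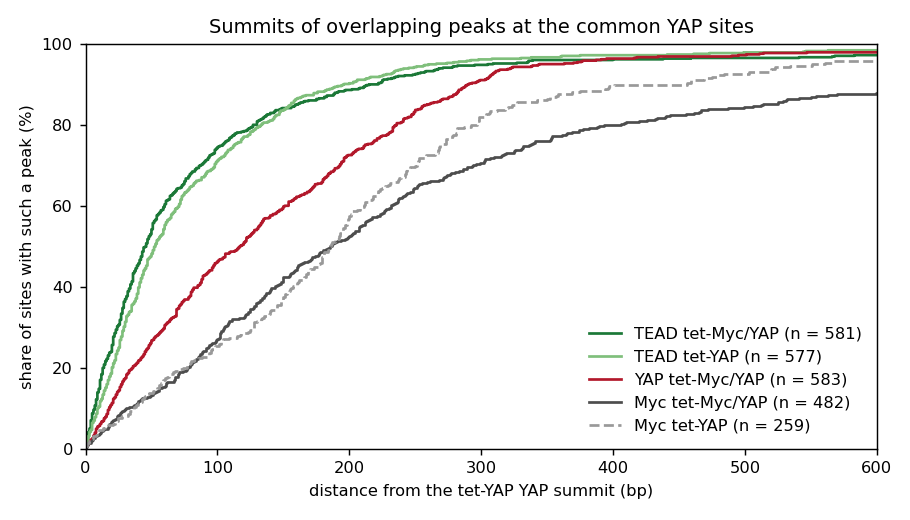
Cumulative share of common sites (y axis, %) by the distance in bp from the tet-YAP YAP summit to the nearest overlapping summit of another list (x axis). The 2 TEAD curves rise first, with medians of 46 and 53 bp, then the tet-Myc/YAP YAP curve, with a median of 118 bp, then the 2 Myc curves, with medians of 187 and 186 bp.

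Single sites are given by mm9 position for the 10 with the highest −log10 q in tet-YAP livers and the first 3 of each class, 22 in all, with values as fold enrichments over control. Most of the strongest were promoter-like, with TEAD in the top ranks in every genotype. The site on chromosome 7 from 148662174 to 148662767 had YAP folds of 32.8 in tet-Myc/YAP and 35.0 in tet-YAP livers. Its TEAD folds were 85.3 in tet-Myc/YAP, 56.4 in tet-YAP, 54.0 in tet-Myc and 51.2 in wild-type livers. Its Myc folds were 36.7, 8.31, 20.9 and 5.50 in the same order, so that Myc was listed in all 4 genotypes. Ranked within each list, these stood at the 95.6th, 78.2nd, 93.1st and 5.23rd percentile. Polymerase folds were 32.9, 34.9, 26.5 and 33.2, at the 97.4th, 98.0th, 95.3rd and 97.4th percentile. Folds of different libraries rest on different depths and controls.

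Of the promoter-like sites with the most YAP in tet-Myc/YAP livers, the one on chromosome 1 from 57463526 to 57463667 had the highest YAP fold of the 583 in that genotype, at 38.7. In tet-YAP livers its fold was 43.7, at the 99.6th percentile of that list. Myc folds there were 28.0 in tet-Myc/YAP, 13.0 in tet-YAP, 15.4 in tet-Myc and 17.3 in wild-type livers. The site on chromosome 10 from 127930894 to 127931339 was similar, with YAP folds of 26.3 and 50.4 in tet-Myc/YAP and tet-YAP livers, TEAD folds of 77.1, 63.2, 79.7 and 53.2 in tet-Myc/YAP, tet-YAP, tet-Myc and wild-type livers, and Myc in all 4. Both also held polymerase in all 4 genotypes.

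Myc in every genotype was not the rule among the strongest promoter-like sites. The site on chromosome 11 from 86922564 to 86923051 had Myc folds of 7.17 in tet-Myc/YAP, 6.34 in tet-YAP and 8.78 in tet-Myc livers and no wild-type Myc peak. The chromosome 13 site (104827583 to 104827960) and the chromosome 5 site (37221673 to 37222063) likewise had Myc in the 3 transgenic genotypes only. At the site on chromosome 14 from 55194431 to 55194857 Myc was at 45.6 in tet-Myc/YAP, 7.66 in tet-YAP and 18.9 in tet-Myc livers, and polymerase was listed at 34.9 in tet-Myc/YAP and 19.0 in tet-YAP livers but in neither tet-Myc nor wild-type livers.

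Of the 190 promoter-like sites with no Myc peak in tet-YAP livers, 96 had Myc in tet-Myc/YAP and tet-Myc livers only, 44 in no genotype and 43 in tet-Myc/YAP livers alone. On chromosome 8, from 49075870 to 49076322 and from 26385507 to 26385931, Myc was found in both genotypes with the Myc transgene, at folds of 12.02 and 9.86 in tet-Myc/YAP livers and 7.96 and 6.31 in tet-Myc livers. On chromosome 10, from 24314971 to 24315415, Myc was found in none. There YAP folds were 7.69 in tet-Myc/YAP and 38.4 in tet-YAP livers, and TEAD folds were 78.7 in tet-Myc/YAP, 25.5 in tet-YAP, 28.1 in tet-Myc and 15.9 in wild-type livers. Polymerase folds at that site were 26.9, 14.6, 3.43 and 12.5 in the same order, and H3K27ac was listed in tet-Myc/YAP, tet-YAP and wild-type but not in tet-Myc livers.

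The 3 distal sites with wild-type H3K27ac and the strongest tet-YAP YAP peaks held little or no Myc, unlike most distal sites. On chromosome 11, from 78896451 to 78896910, the YAP fold was 5.32 in tet-Myc/YAP and 42.4 in tet-YAP livers, TEAD stood at 25.2, 16.3, 41.8 and 26.1 in tet-Myc/YAP, tet-YAP, tet-Myc and wild-type livers, and neither Myc nor polymerase was found in any genotype. The same absence held on chromosome 15 from 79782398 to 79782797, with a YAP fold of 10.9 in tet-Myc/YAP and 41.1 in tet-YAP livers. On chromosome 9, from 102681822 to 102682135, Myc was found in tet-Myc/YAP livers alone, at 5.55, and polymerase was listed for the genotypes with the YAP transgene, at 14.1 in tet-Myc/YAP and 7.0 in tet-YAP livers. H3K27ac covered all 3 sites in all 4 genotypes.

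At the 14 distal sites with H3K4me1 as their only wild-type mark, the median TEAD fold was 45.5 in tet-Myc/YAP, 21.0 in tet-YAP, 26.1 in tet-Myc and 11.2 in wild-type livers, beside 40.8, 20.4, 25.8 and 14.0 at all distal common sites. On chromosome 11, from 59272577 to 59272785, TEAD was at 91.8 in tet-Myc/YAP, 55.8 in tet-YAP, 26.7 in tet-Myc and 8.75 in wild-type livers. On the same chromosome, from 120114067 to 120114381, it was at 86.6, 46.2, 26.1 and 12.1, and on chromosome 8, from 83381068 to 83381342, at 44.9, 17.9, 15.5 and 10.4 in the same order. In each of the 3, the TEAD fold was highest with both transgenes and lowest in wild-type livers. The same held for the median over TEAD peaks at no common site (7.72 and 5.79). Ranked within its own list, TEAD was also highest in tet-Myc/YAP livers at all 3. Its rank was lowest in wild-type livers at the first 2, but in tet-Myc livers at the third (90.4th percentile, against the 90.9th in wild-type livers). Only the first of the 3 sites had Myc, at 10.8 in tet-Myc/YAP and 6.0 in tet-YAP livers. H3K27ac was listed in tet-Myc/YAP and tet-YAP livers at all 3 and also in tet-Myc livers at the second, and in wild-type livers at none.

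The 2 common sites with TEAD in both genotypes with the YAP transgene but not in wild-type livers were unlike each other. On chromosome 10, from 43209340 to 43209534, a distal site, TEAD was at 54.4 in tet-Myc/YAP, 19.1 in tet-YAP and 11.3 in tet-Myc livers, and tet-Myc/YAP livers alone had Myc (18.8) and H3K4me3, while polymerase was at 30.6 in tet-Myc/YAP and 7.0 in tet-YAP livers. On chromosome 15, from 96859755 to 96859810, a promoter-like site, TEAD was weak, at 6.55 and 3.50 in tet-Myc/YAP and tet-YAP livers, and polymerase was at 36.7, 54.3, 43.4 and 47.4 in tet-Myc/YAP, tet-YAP, tet-Myc and wild-type livers.

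Common sites without a tet-YAP TEAD peak numbered 6, and the 3 strongest were promoter-like and narrow, at 56 to 73 bp. At the one on chromosome 4 from 148541622 to 148541694, TEAD was found in wild-type livers alone, at 7.19, and Myc was at 52.4 in tet-Myc/YAP, 13.0 in tet-YAP and 25.5 in tet-Myc livers. The one on chromosome 6 from 38501292 to 38501347 had TEAD at 8.98 in tet-Myc/YAP and 6.28 in wild-type livers, and the one on that chromosome from 127280248 to 127280317 had TEAD at 6.79 in tet-Myc/YAP, 8.23 in tet-Myc and 5.09 in wild-type livers and no Myc in any genotype.

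The common site with the highest tet-YAP −log10 q had weak TEAD in every genotype. On chromosome 9, from 24346493 to 24346592, the tet-Myc/YAP YAP peak had a fold of 9.51 and the tet-YAP peak 78.2, while TEAD was at 3.96 in tet-Myc/YAP, 5.0 in tet-YAP, 5.76 in tet-Myc and 4.82 in wild-type livers. Its Myc folds were 13.1 in tet-Myc/YAP, 4.09 in tet-YAP, 7.30 in tet-Myc and 54.3 in wild-type livers, the last being the highest of the wild-type Myc list. The 2 lists in which it stood out are those whose estimated fragment size was near the tag length, and their part in these values was not tested.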

How the data were processed

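ChIP-seq lists of 23 of the 24 liver samples were used, 1 library for each antibody and genotype (n = 1), with groups read from the sample titles. The sample titled as input was not analysed here. By the submitters' processing notes, the authors aligned reads with BWA 0.6.2 to mm9 and used SAMtools and MACS2 2.0.9. By the study's methods, YAP chromatin was crosslinked with DSG and formaldehyde, all other chromatin with formaldehyde only. The 14 deposited narrow lists (YAP, TEAD, Myc, RNA polymerase II), called by the authors for each library at a p cutoff of 1e-05 per the file headers, hold for each peak a pileup signal, a fold enrichment over control (a ratio), and −log10 p and −log10 q. The 9 deposited broad lists (H3K4me3, H3K27ac, H3K4me1) hold regions with the authors' score, of unstated scale, used for ranks only. No per-sample column was left unused (0).

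Overlaps of at least 1 bp were computed with numpy 2.4.6 and pandas 2.3.3 (Python 3.11.15), Wilson 95% intervals with scipy 1.17.1, and figures with matplotlib 3.10.9. Overlaps were tested on simulated data (2000 peaks, 500 of them planted on a partner) with 6 of 6 checks passed, and gave the counts of bedtools 2.31.1 on 3 of 3 real pairs of lists. Where several peaks of a list overlapped a site the highest fold was taken, and percentiles are ranks of fold within a list. Lists of 1 antibody differ in length, depth and peak width, and each of these can change a share of sites overlapped. Alternatives were a −log10 q of at least 10, the summit inside, 50% of the peak covered, sites widened to 250 bp either side of the summit, lists of equal length, no mark required, and the nearest in place of the highest peak. Named sites were the 10 with the highest tet-YAP −log10 q and the first 3 of each class, which were promoter-like with and without tet-YAP Myc, distal with and without H3K27ac, sites without Myc in any genotype, sites without tet-YAP TEAD, and sites with TEAD in both YAP livers but not in wild-type livers. The members, classes and lists were chosen with earlier results of these data known. Gene names, sequence motifs and liver markers were not looked up, as no mm9 genome or annotation was used here.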

Additional observations from a re-analysis of the deposited data

Results flagged for a closer look

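In 5 cases the count of common sites with a peak moved one way where the other transgene was present and the opposite way where it was absent, none of which could be tested with 1 library per group. H3K4me3 covered 439 sites in tet-Myc/YAP and 372 in tet-YAP livers, 67 more with the Myc transgene, but 387 in tet-Myc and 411 in wild-type livers, a change of -24, so the 2 changes were 91 sites apart. Read for the YAP transgene, the same counts gave 52 more sites in tet-Myc/YAP than in tet-Myc livers and a change of -39 between tet-YAP and wild-type livers, again 91 apart. The wild-type count was fixed by the choice of promoter-like sites. H3K4me3 moved in the same directions over all 1328 tet-YAP YAP peaks, at 616 in tet-Myc/YAP, 541 in tet-YAP, 548 in tet-Myc and 605 in wild-type livers. It also did so over all 11719 tet-Myc/YAP YAP peaks, at 9151, 8337, 8875 and 9127. The H3K4me3 pattern was thus not particular to the common sites. H3K27ac gave a change of -3 between tet-Myc/YAP and tet-YAP livers and of 7 between tet-Myc and wild-type livers, a difference of -10, with the wild-type count again part of the rule. TEAD counts moved by 4 between tet-Myc/YAP and tet-YAP and by -2 between tet-Myc and wild-type livers, a difference of 6, and for the YAP transgene by 3 between tet-Myc/YAP and tet-Myc and by -3 between tet-YAP and wild-type livers, also 6, all within counts of 577 to 581 of the 583 sites.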

How the results depend on the processing

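Of 238 values recomputed under alternatives, 172 moved by less than their counting interval and the others moved beyond it. Each value was scored only by the size of its shift, so reversals of direction were not looked for among them. No paired analysis was possible because each group had 1 library, and no replicate could be left out. Taking the nearest in place of the highest peak moved no median fold beyond its interval. At a −log10 q of at least 10 the common sites numbered 107, and TEAD was at 100% of them in tet-Myc/YAP, tet-Myc and wild-type livers, while Myc was at 35.5% in tet-YAP and 0.935% in wild-type livers. With the summit required inside, Myc was at 38.7% in tet-YAP and 3.17% in wild-type livers, and with 50% of the peak covered at 39.8% and 2.63%. With sites widened to 250 bp either side of the summit, Myc was at 49.8% in tet-YAP, 71.0% in tet-Myc and 11.7% in wild-type livers, and polymerase at 58.8% in wild-type livers. Without the mark requirement 65.8% were promoter-like, Myc was at 62.4% in tet-Myc and polymerase at 80% in tet-Myc/YAP livers. With the Myc lists cut to equal length, Myc was at 22.98% in tet-Myc/YAP, 21.8% in tet-YAP and 19.2% in tet-Myc livers, and TEAD lists cut to that length, chosen after seeing the data, gave 81.6% in tet-Myc/YAP, 89.9% in tet-YAP, 83.5% in tet-Myc and 88.3% in wild-type livers. With H3K4me3 lists cut to equal length, an alternative chosen after seeing the data, H3K4me3 was at 11.05% of distal sites in tet-Myc/YAP livers. The cause of these shifts beyond list length was not tested. Under the stricter threshold common sites had more TEAD than sites not found again, at 100% against 87.5% in wild-type livers. They also had more Myc in the transgenic genotypes, at 79.4% against 26.8% in tet-Myc/YAP livers. Wild-type Myc went the other way, at 0.935% against 7.14%. With the summit inside its shares were 3.17% and 2.68%, and with 50% of the peak covered 2.63% and 2.24%. The libraries for YAP in tet-YAP and for Myc in wild-type livers have fragment estimates near the tag length and narrow peaks, and single lists give no measure of variation between animals.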

Other observations

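The 42 YAP sites common to tet-Myc/YAP and tet-YAP livers that lay on no wild-type mark held TEAD at 95.2% in tet-Myc/YAP, tet-YAP and tet-Myc livers and at 88.1% in wild-type livers. H3K27ac, absent from them in wild-type livers by the rule, covered 54.8% in tet-Myc/YAP, 40.5% in tet-YAP and 19.0% in tet-Myc livers, against 27.4%, 21.9% and 13.2% of all 310 tet-YAP YAP peaks outside marks. Myc was at 40.5% of the 42 in tet-Myc/YAP, 2.38% in tet-YAP and 7.14% in tet-Myc livers, and polymerase at 21.4%, 7.14% and 2.38%.

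Common sites were mostly alone in the genome. Of 563 pairs of neighbouring sites on a chromosome, 63 lay within 1000 bp and 86 within 10000 bp. The most crowded wild-type H3K27ac regions, with 4 common sites each, spanned 57163 bp of chromosome 15 (77621087 to 77678249) and 33189 bp of chromosome 9 (102610577 to 102643765).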
